A study of Mus musculus with 9 samples.

Results

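RNA was sequenced from K7M2, a line of mouse osteosarcoma cells able to spread to the lung in mice, after treatment with platelets labelled (A/R), and the account below sets those libraries against untreated K7M2 libraries. It covers 3 A/R platelet libraries and 3 untreated libraries of the 9 in the series, taken by their labels, and 11826 of the 55401 genes in the table, namely those whose FPKM reached 1 or more in 3 or more of the 9 libraries. FPKM is the number of fragments per kilobase of transcript, scaled to the number of mapped fragments. What A/R stands for is not said in the labels, and the term serves only as a name.

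All cells were wild type K7M2 grown in DMEM with 10% FBS, so a single cell line carries every result. The A/R platelet cells received mouse platelets marked (A/R), the platelet cells received mouse platelets without that mark, and the untreated cells received none. The titles give 24 h for every library. The treatment field differs, with 27, 28 and 29 h for A/R platelet libraries and 24, 25 and 26 h for platelet libraries, so that labelled hours and A/R cannot be told apart. Since those hours go up by 1 h with each sample, they may not be real durations. Nothing in the labels used here gives the platelet dose or preparation, or says that replicates were separate cultures, so that p-values speak of the spread among these libraries and no more, a spread that may be technical. Libraries held 37465049 to 61366030 counts. On the first principal component (34.4% of variance) lay the 3 A/R platelet libraries at -35 to -34.7, the platelet libraries at 12.9 to 16.6 and the untreated libraries at 18.5 to 20.3.

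The labelled cell type was checked against 22 bone lineage markers, of which only 9 passed the filter. Runx2†, Spp1†, Sparc, Col1a1, Col1a2 and Phex† were among those that passed the filter, whereas Dlx5, Msx2, Alpl, Ibsp and Tnfsf11 had 0 counts in each of the 9 libraries (an upper limit of 0.320 CPM, counts scaled to the library total, where depth was lowest). Sp7†, Bglap† and Bglap2† were near absent as well, with 0 to 8, 0 to 8 and 0 to 10 counts. Bulk RNA cannot tell fewer cells of a kind from less RNA per cell. A dagger marks genes that the naming rule did not take and that were chosen after their values were seen.

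Several of the gene groups described here belong to known programmes. In the integrated stress response, kinases that sense amino acid shortage, unfolded protein, heme loss or viral RNA phosphorylate the initiation factor eIF2, which slows most translation and favours translation of the transcription factor ATF4. ATF4 binds with C/EBP partners and drives genes for amino acid synthesis, amino acid uptake and the charging of tRNA. In cell division, E2F factors drive the genes of G1/S and DNA replication, and in the unfolded protein response ATF6 and XBP1 drive the chaperones of the endoplasmic reticulum (ER). Ribosome building, in turn, is driven by growth signals and by MYC.

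RefSeq promoter sequences (GRCm38.p6, 250 bases before to 50 after the start site) show letters that these factors are known to prefer in some of the genes described below. They are printed for genes of 3 groups whose levels moved in different directions. Each stretch of 100 bases runs 5′ to 3′ on the strand of the gene, and capitals mark the match.
The first 4 hold the C/EBP-ATF composite element, TGATGNAA on either strand, and come from genes that were higher with A/R platelets:
Chac1: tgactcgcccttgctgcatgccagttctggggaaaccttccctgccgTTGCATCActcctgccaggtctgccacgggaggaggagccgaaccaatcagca
Asns: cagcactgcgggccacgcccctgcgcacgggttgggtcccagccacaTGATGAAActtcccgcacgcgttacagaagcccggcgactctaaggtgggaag
Slc7a11: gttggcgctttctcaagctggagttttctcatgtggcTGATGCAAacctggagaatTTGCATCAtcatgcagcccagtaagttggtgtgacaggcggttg
Gars: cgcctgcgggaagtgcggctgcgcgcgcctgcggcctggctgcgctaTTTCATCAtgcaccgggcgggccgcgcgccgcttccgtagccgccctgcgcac
The next 3 hold an E2F site, TTTCCCGC or TTTGGCGC on either strand, and come from genes that were lower:
Cdc6: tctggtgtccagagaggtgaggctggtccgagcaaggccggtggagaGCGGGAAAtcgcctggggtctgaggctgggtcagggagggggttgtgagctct
Mcm6: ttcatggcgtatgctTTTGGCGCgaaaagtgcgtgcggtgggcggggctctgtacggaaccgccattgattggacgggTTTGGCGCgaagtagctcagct
E2f7: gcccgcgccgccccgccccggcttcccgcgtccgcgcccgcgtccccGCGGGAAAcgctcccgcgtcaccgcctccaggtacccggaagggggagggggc
The last 3 hold the ER stress element, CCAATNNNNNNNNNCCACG on either strand, and come from genes that were also lower:
Hspa5: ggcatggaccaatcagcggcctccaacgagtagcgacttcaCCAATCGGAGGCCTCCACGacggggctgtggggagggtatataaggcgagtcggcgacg
Calr: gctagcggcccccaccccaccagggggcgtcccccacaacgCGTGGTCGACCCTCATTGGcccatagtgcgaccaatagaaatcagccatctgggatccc
Dnajc3: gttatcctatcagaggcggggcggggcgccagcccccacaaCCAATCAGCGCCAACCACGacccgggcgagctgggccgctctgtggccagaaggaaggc
These stretches lie at chr2:119351002-119351101 on the plus strand for Chac1, chr6:7693180-7693279 on the minus strand for Asns, chr3:50443617-50443716 on the minus strand for Slc7a11 and chr6:55037924-55038023 on the plus strand for Gars. They lie at chr11:98907966-98908065 on the plus strand for Cdc6, chr1:128359731-128359830 on the minus strand for Mcm6 and chr10:110745194-110745293 on the plus strand for E2f7. Those of Hspa5, Calr and Dnajc3 lie at chr2:34771984-34772083 on the plus strand, chr8:84847035-84847134 on the minus strand and chr14:118937786-118937885 on the plus strand.

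Promoter windows were matched by symbol for 8204 of the 11816 distinct symbols tested. The composite element was found in 2.58% of these and in 3.97% of all 32851 windows. It was found in 5 of 13 cytosolic aminoacyl-tRNA synthetases with a window (38.5%), in 3 of 14 ATF4 regulators, in 4 of 18 other ATF4 targets, in 3 of 12 enzymes of asparagine, proline, alanine and glutamate, in 2 of 10 amino acid transporters and in 0 of 16 serine and folate enzymes. E2F letters stood in 3.90% of tested genes with a window, in 1.56% of all windows and in 13 of 40 replication factors (32.5%). Of those 13 factors 11 were lower with A/R platelets and 1 higher, beside 37 lower and 4 higher of all 49 tested replication factors. E2F letters also stood in 3 of 10 E2F and pocket protein genes and in 0 of 9 genes of nucleotide supply for DNA. The ER stress element stood in 13 tested genes (0.158%) and in 0.119% of all windows. Of those 13 genes, 9 are in the list of 29 ER genes with a window (31.0%), and all 9 were lower, beside 22 of all 35 tested ER genes. Whether members with a motif changed differently from those without was not tested. A match of letters is a description of the sequence and not a bound site.

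Against untreated cells, 38.8% of the genes tested passed edgeR's quasi-likelihood test at a Benjamini-Hochberg adjusted p under 0.05 (called genes), 19.3% higher and 19.5% lower. The median log2 fold change of all genes tested was 0.00, and FPKM ranges of the 2 groups were apart in 51.1% of genes, 21.4% with the A/R platelet libraries higher and 29.8% with them lower. The filter was met only through A/R platelet libraries by 250 genes (fewer than 3 of the other 6 libraries at an FPKM of 1 or more), and only through the other groups by 336 genes (no A/R platelet library at that level). The filter itself favours a difference in such genes. Of the genes described below, Areg, Cdsn† and Inhba are of the first kind and Bcl2, Castor2, Fgf2, Gbp7†, Hspa1a†, Id2†, Irf9†, Notch1†, Pdgfb and Sp100† of the second. Called changes of at least 2-fold were less common, 1.51% of genes higher and 2.33% lower. With so many calls, counts of a gene group are read below against 19.3% higher and 19.5% lower, and rose and fell are used only of called genes. Every fold change is on the log2 scale, with the standard error (SE) of the fit.

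The 20 largest rises were led by Stbd1, Angptl6, Gadd45a, Cth, Gtpbp2, Gdf15, Chac1 and Trib3, in that order, several of which are taken up below. Further down the 20 were genes of mitochondria, lipid handling and matrix. Slc25a33, a mitochondrial carrier of pyrimidine nucleotides, had 29.7, 29.3 and 29.3 FPKM in A/R platelet libraries, 11.3, 10.1 and 10.9 FPKM in platelet libraries and 7.48, 8.24 and 7.91 FPKM in untreated libraries. All A/R platelet libraries were above the rest, and platelet libraries lay above the untreated ones as well. Soat2, which esterifies cholesterol, rose by 1.92 ± 0.11, Timp3, an inhibitor of metalloproteinases that stays in the matrix, by 1.89 ± 0.081, and Dennd4a, an exchange factor for a Rab GTPase, by 1.91 ± 0.083. Cox6a2, the heart and muscle form of a cytochrome oxidase subunit, rose by 1.76 ± 0.26, Cyb5r1, a cytochrome b5 reductase, by 1.71 ± 0.064 and Akna, an AT-hook protein, by 1.69 ± 0.098. Brd3os also rose by 1.88 ± 0.13, but it lies antisense to Brd3†, and without knowledge of strand use its reads cannot be told from those of Brd3. For Ccdc50 (1.95 over untreated), platelet replicate 3 held 6.06 FPKM, against 1.45 and 1.73 FPKM in the other platelet libraries.

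The 20 largest falls included regulators of growth, nuclear proteins and enzymes of the cell surface. Mgat3, which adds the bisecting sugar to N-glycans, fell by 1.44 ± 0.054 on the log2 scale, and 6 of 9 tested enzymes of N-glycan branching fell, among them St6gal1 (-0.55), Mgat5 (-0.47) and Mgat2 (-0.29). Slfn9, a Schlafen family gene, was at -1.70 ± 0.15, Ppp1r12b, a myosin phosphatase subunit, at -1.67 ± 0.11, and Atp8b2, a phospholipid flippase, at -1.60 ± 0.11. Tcf19, a transcription factor of the G1/S period, was at -1.51 ± 0.087, the elastic fibre gene Emilin1 at -1.50 ± 0.079, the organic anion transporter Slco4a1 at -1.43 ± 0.055, and Tram2, a protein of the ER translocon, at -1.42 ± 0.1. Pias3, an inhibitor of STAT3, was at -1.41 ± 0.23. All of these were called in edgeR's test, with adjusted p between 5.46e-07 and 0.00137. Hnrnpa3 (-1.62) has processed copies that can share its reads.

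**Figure D1:**
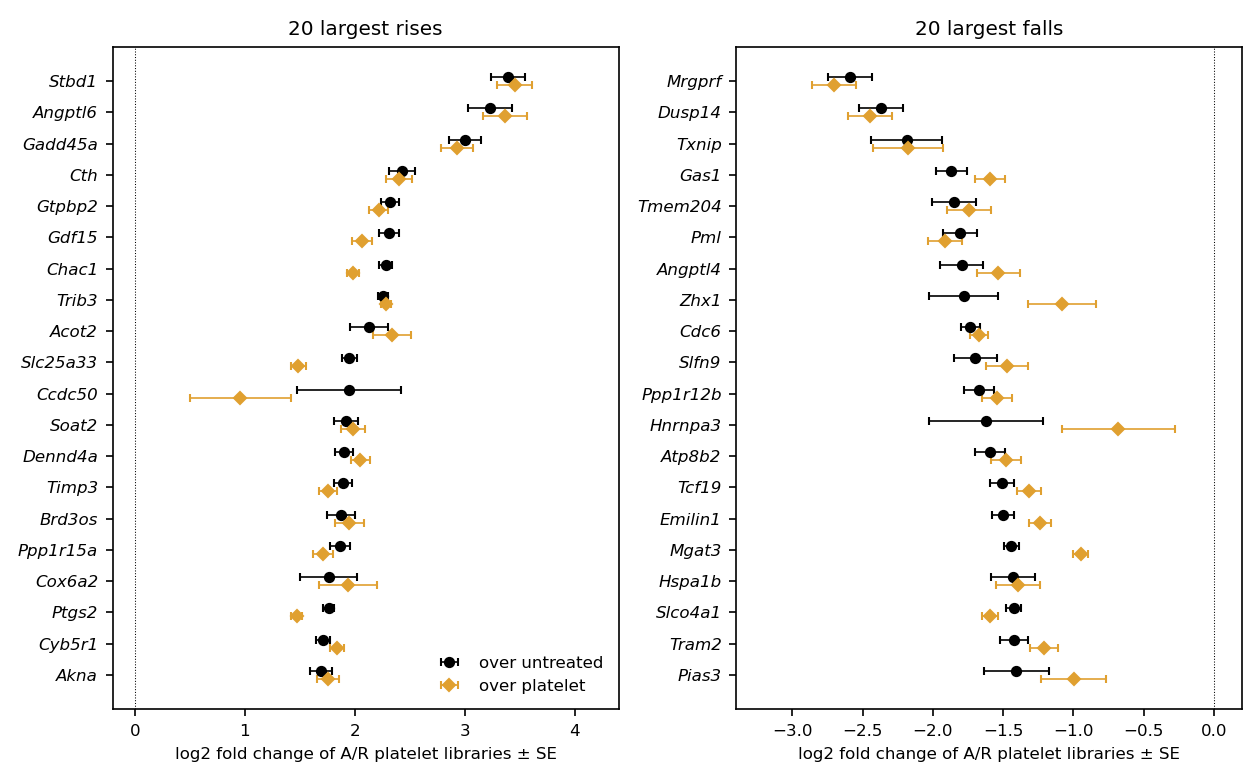
Log2 fold change (x axis) of the 20 largest rises and 20 largest falls (rows), with black circles for A/R platelet over untreated libraries, orange diamonds for A/R platelet over platelet libraries, and error bars for 1 SE. Most pairs of points lie close together, and the comparisons share the A/R platelet libraries. Stbd1 stands at the top at 3.40 over untreated and 3.45 over platelet libraries.

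Among regulators of the integrated stress response, ATF4 and several of its partners rose and none of the tested sensing kinases did. Of 16 tested members of that list 10 rose and 3 fell, with a median of 0.57. Atf4 (chr15:80255184-80257541, plus strand) held 220.2, 214 and 215 FPKM in A/R platelet libraries, 132, 127 and 125 FPKM in platelet libraries and 118, 116 and 109 FPKM in untreated libraries. Its A/R platelet libraries stood apart from both other groups, and it rose by 0.97 ± 0.045 (edgeR adjusted p 1.35e-06). Ddit3, the partner known as CHOP, had 36.9, 33.6 and 34.6 FPKM in A/R platelet libraries, 12.8, 13.9 and 12.9 FPKM in platelet libraries and 11.7, 13.5 and 13.9 FPKM in untreated libraries. The platelet and untreated libraries of Ddit3 overlapped each other and lay far below the A/R platelet libraries (1.48 ± 0.081).

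Trib3, a pseudokinase that binds ATF4 and dampens it, rose by 2.26 ± 0.046, the most of the list. Jdp2, a bZIP repressor that pairs with ATF factors, rose by 1.15 ± 0.053, Nupr1, a stress-induced chromatin protein, by 1.12 ± 0.27, Cebpg, which pairs with ATF4, by 0.85 ± 0.052, Cebpb by 0.52 ± 0.12 and Atf5 by 0.41 ± 0.059. Ppp1r15a (GADD34), the inducible subunit that returns eIF2 to its unphosphorylated form, rose by 1.87 ± 0.094, and its constitutive counterpart Ppp1r15b stood at 0.06 ± 0.038 without a call. The eIF2 kinases went the other way or were not called. Eif2ak3 (PERK), the kinase that senses unfolded protein in the ER, fell with 2.95, 2.38 and 2.96 FPKM in A/R platelet libraries, 4.16, 4.21 and 3.55 FPKM in platelet libraries and 4.2, 4.02 and 4.22 FPKM in untreated libraries. The A/R platelet libraries were the 3 lowest of the 9. Eif2ak2 (PKR), the sensor of double-stranded RNA, fell by 0.85 ± 0.085. Eif2ak4 (GCN2), the sensor of uncharged tRNA, was at 0.01 ± 0.08 and its coactivator Gcn1 at 0.12 ± 0.053, both without a call.

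Of 21 tested ATF4 targets outside amino acid metabolism 17 rose and 0 fell, with a median of 0.90 (1 fell in the fit of these 6 libraries alone and in the fit without platelet replicate 2). Chac1, which breaks down glutathione and whose promoter stretch above holds the composite element, had 144, 143 and 139 FPKM in A/R platelet libraries, 38.3, 38.1 and 34.4 FPKM in platelet libraries and 31.3, 30.6 and 29.1 FPKM in untreated libraries. A/R platelet libraries were far above the others, with untreated libraries lowest. Pck2†, mitochondrial phosphoenolpyruvate carboxykinase, rose by 1.24 ± 0.11, Stc2†, a secreted glycoprotein, by 1.68 ± 0.28 and Adm2†, a peptide hormone of the calcitonin family, by 1.29 ± 0.11. Cdsn†, known as a protein of cornified skin, had 2.09, 2.48 and 2.31 FPKM in A/R platelet libraries, 0.369, 0.224 and 0.352 FPKM in platelet libraries and 0.201, 0.266 and 0.237 FPKM in untreated libraries. It was low throughout and met the filter only through the A/R platelet libraries, so its place among the 17 followed from the filter. Vldlr†, a lipoprotein receptor, rose by 0.69 ± 0.06, the zinc transporter Slc39a14† by 0.70 ± 0.061 and Sesn2, which holds back mTORC1 when leucine is short, by 0.41 ± 0.051. Herpud1† and Map1lc3b†, targets that the ER stress and autophagy branches share, were at -0.07 ± 0.11 and -0.18 ± 0.13 without a call.

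**Figure D2:**
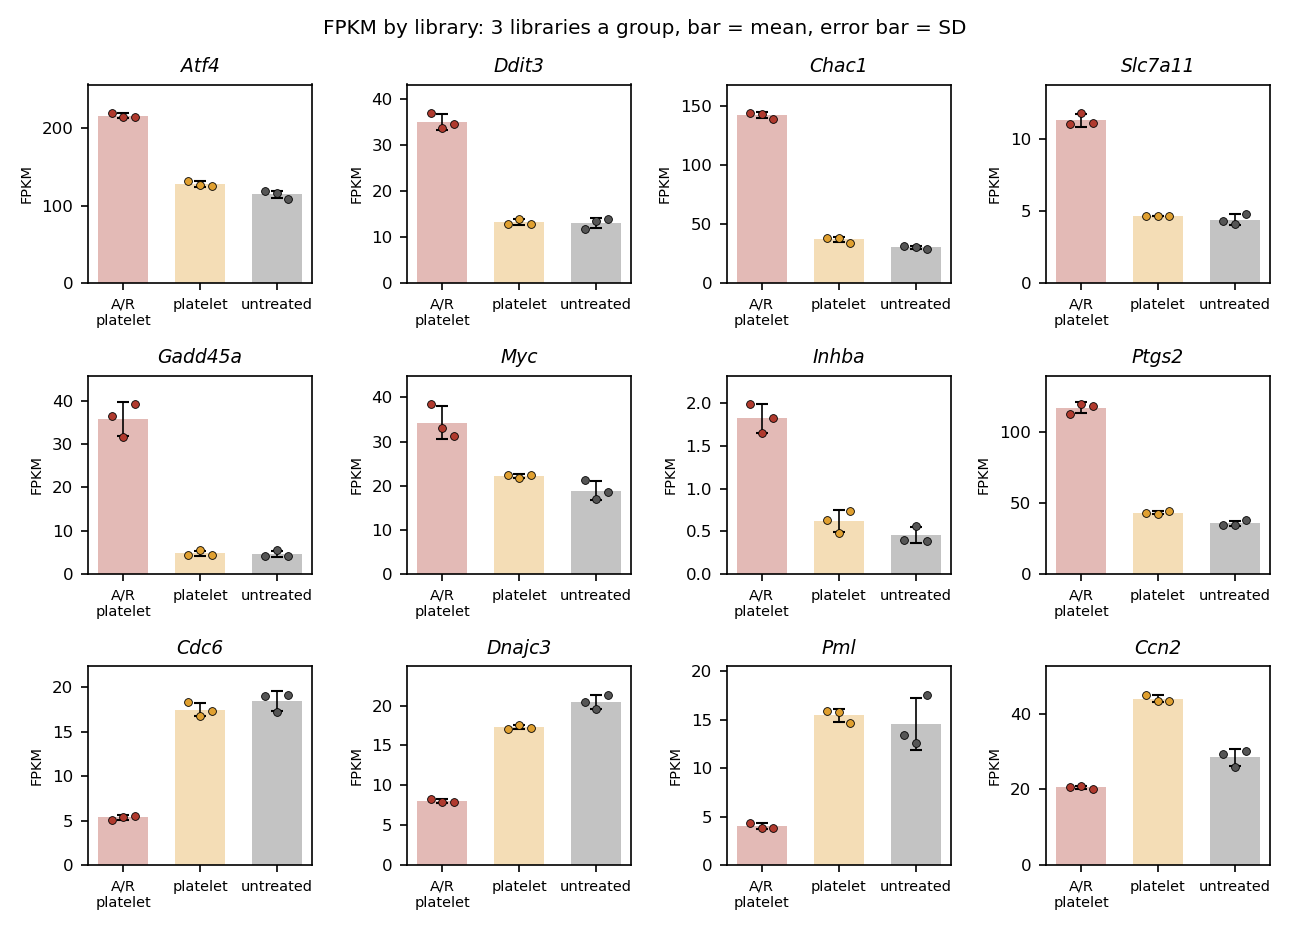
FPKM per library (y axes, 1 panel for each of 12 genes, each from 0) for A/R platelet, platelet and untreated libraries, left to right, with 1 point per library, a bar at the group mean and an error bar for the SD. In every panel the A/R platelet points lie clear of both other groups on the same side, and Ccn2 has its highest values in platelet libraries.

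Amino acid synthesis genes rose in part. In the serine, glycine and one-carbon folate list 11 of 19 tested members rose and 2 fell, with a median of 0.39. Mthfd2, the mitochondrial folate dehydrogenase that is high in embryos and tumours, held 115, 109 and 113 FPKM in A/R platelet libraries, 52.8, 48 and 47.5 FPKM in platelet libraries and 47.1, 46.4 and 45.3 FPKM in untreated libraries. Its relatives in mitochondria, Aldh1l2 (1.27), Shmt2† (0.60) and Mthfd1l† (0.56), rose as well. Along the serine pathway itself, Phgdh† rose by 0.50 ± 0.047, Psph, the last step, by 0.94 ± 0.049 and Psat1†, between them, by 0.17 ± 0.04, a call that quantile normalization ended (0.05, limma adjusted p 0.282). Tyms†, which serves thymidylate synthesis for DNA, fell (-0.44).

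Of 16 tested enzymes of asparagine, proline, alanine and glutamate 9 rose and 2 fell. Pycr1†, which closes the proline ring, had 5.45, 5.09 and 4.5 FPKM in A/R platelet libraries, 2.31, 1.98 and 1.97 FPKM in platelet libraries and 1.03, 2.03 and 2.2 FPKM in untreated libraries. Every A/R platelet library was above the others, and untreated replicate 1 was the lowest library. Aldh18a1, the first step of proline synthesis, rose by 0.97 ± 0.038, and Prodh†, which breaks proline down, by 0.96 ± 0.091. Gpt2, mitochondrial alanine aminotransferase, rose by 1.17 ± 0.045, Bcat1, which handles branched-chain amino acids, by 0.74 ± 0.045, Asns†, asparagine synthetase, by 0.64 ± 0.095 and Got1, cytosolic aspartate aminotransferase, by 0.58 ± 0.04. Oat†, which joins ornithine and proline metabolism, fell by 0.23 ± 0.038.

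Amino acid carriers of the plasma membrane rose in 8 of 13 tested members and fell in 3. Slc6a9, a glycine carrier, had 27.4, 29.9 and 27.6 FPKM in A/R platelet libraries, 8.03, 7.74 and 8.53 FPKM in platelet libraries and 10.5, 9.97 and 10 FPKM in untreated libraries. It was higher in all A/R platelet libraries, with platelet libraries lowest. Slc7a11, which takes up cystine in exchange for glutamate, held 11.1, 11.8 and 11.1 FPKM in A/R platelet libraries, 4.66, 4.64 and 4.64 FPKM in platelet libraries and 4.32, 4.09 and 4.82 FPKM in untreated libraries. Its heavy chain partner Slc3a2 rose by 0.92 ± 0.095, and Slc7a5†, the carrier of large neutral amino acids that uses the same heavy chain, by 0.90 ± 0.068. The arginine and lysine carrier Slc7a1 rose by 0.96 ± 0.06, and the neutral carriers Slc1a4† and Slc1a5† by 0.82 ± 0.059 and 0.51 ± 0.04. Slc6a6, the taurine carrier, fell by 0.75 ± 0.051 and the carrier Slc36a4† by 0.67 ± 0.08.

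The enzymes that charge tRNA split by compartment. Of 20 cytosolic synthetases 18 rose and 0 fell, with a median of 0.58, whereas 3 of 17 mitochondrial ones rose and 1 fell, with a median of 0.15. Sars, for serine, held 126, 118 and 120.5 FPKM in A/R platelet libraries, 63.3, 62 and 61.6 FPKM in platelet libraries and 60.1, 62.3 and 59.4 FPKM in untreated libraries. All A/R platelet libraries lay well above the rest, which overlapped one another, and Sars rose by 1.05 ± 0.04 (edgeR adjusted p 5.46e-07). Eprs†, for glutamate and proline, rose by 0.93 ± 0.062, Gars, for glycine, by 0.86 ± 0.042, Tars†, for threonine, by 0.84 ± 0.051 and Lars, for leucine, by 0.77 ± 0.043. Qars†, for glutamine, stood at -0.09 ± 0.05 and Farsa†, the alpha subunit for phenylalanine, at 0.23 ± 0.11, both without a call. In mitochondria Ears2 (0.61), Tars2 (0.51) and Nars2 (0.52) rose and Cars2 fell (-0.43). The difference between the compartments was not tested.

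**Figure D3:**
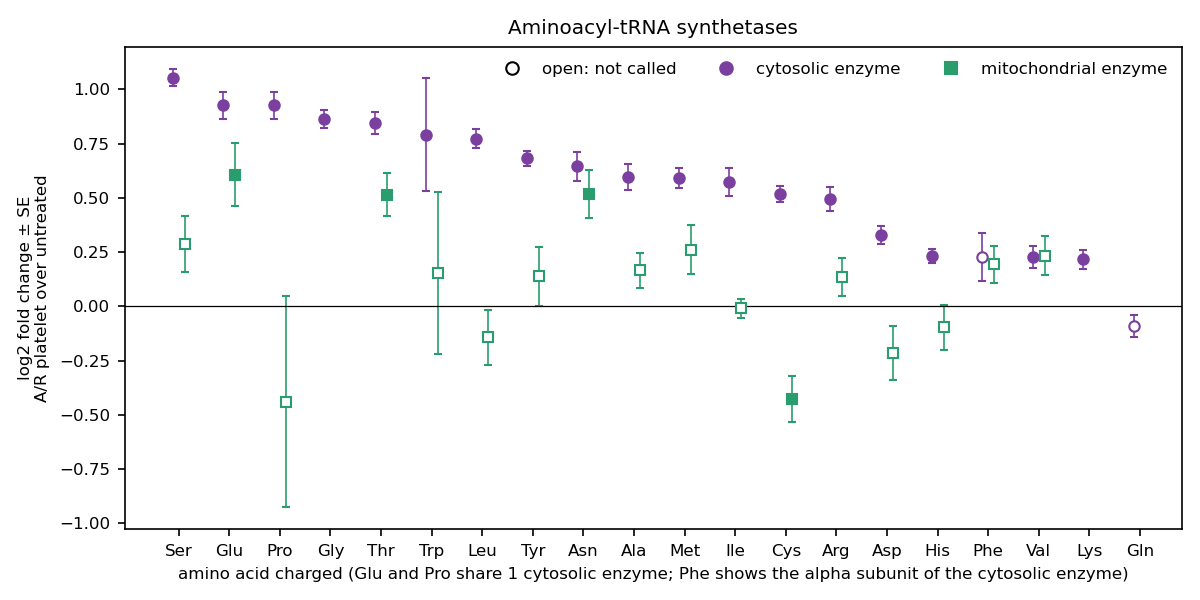
Log2 fold change of A/R platelet over untreated libraries (y axis, error bars for 1 SE) of aminoacyl-tRNA synthetases by the amino acid they charge (x axis), with circles for cytosolic and squares for mitochondrial enzymes, filled where called. The called cytosolic enzymes lie between 0.22 for Kars and 1.05 for Sars, and 13 of the 17 mitochondrial enzymes were not called.

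Sulfur metabolism and antioxidant genes moved in both directions. In the list of cystine uptake, transsulfuration and glutathione 6 of 18 tested members rose and 2 fell. Cth, which makes cysteine in transsulfuration, rose by 2.43 ± 0.12, the most of the list. Gclc†, which starts glutathione synthesis, rose by 0.17 ± 0.041, while its partner Gclm† (0.00) and the reductase Gsr† (-0.03) were not called. The peroxidase gene Gpx1† fell by 0.32 ± 0.047 and the ER peroxidase gene Gpx8† by 0.29 ± 0.069. Of 31 NRF2 and thioredoxin genes 13 rose and 5 fell, with 8 higher under quantile normalization. Sqstm1 (p62), an autophagy receptor, had 402, 395 and 392 FPKM in A/R platelet libraries, 179, 167 and 177 FPKM in platelet libraries and 177, 184 and 171 FPKM in untreated libraries. Both other groups lay far below and overlapped. Hmox1, which breaks down heme and is a well known NRF2 target, rose by 1.62 ± 0.058, the most of the list. Txnrd1 and Txnrd2†, thioredoxin reductases of cytosol and mitochondria, rose by 0.44 ± 0.039 and 0.58 ± 0.097, and the gene of a small MAF protein, Mafg, by 0.59 ± 0.067. Nqo1†, a common readout of NRF2, was at -0.08 ± 0.043 and Nfe2l2†, NRF2 itself, at 0.09 ± 0.046, both without a call. Keap1† (-0.35) and Bach1† (-0.45), which hold NRF2 targets down, fell.

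Txnip, an arrestin-domain protein that lowers glucose uptake and binds thioredoxin, had 1.53, 2.01 and 2.23 FPKM in A/R platelet libraries, 9.46, 8.87 and 8.65 FPKM in platelet libraries and 10.1, 5.68 and 11.7 FPKM in untreated libraries. It is a well known target of MondoA (Mlxip) and its partner Mlx. Levels were lowest in A/R platelet libraries throughout, with edgeR adjusted p 0.000175 against untreated cells. Arrdc4, a close relative under the same factors, stood at -0.01 ± 0.15, Mlxip at 0.17 ± 0.075 and Mlx at 0.39 ± 0.17, all without a call. Arrdc1, which sorts cargo into vesicles at the plasma membrane, fell by 0.86 ± 0.19.

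**Figure D4:**
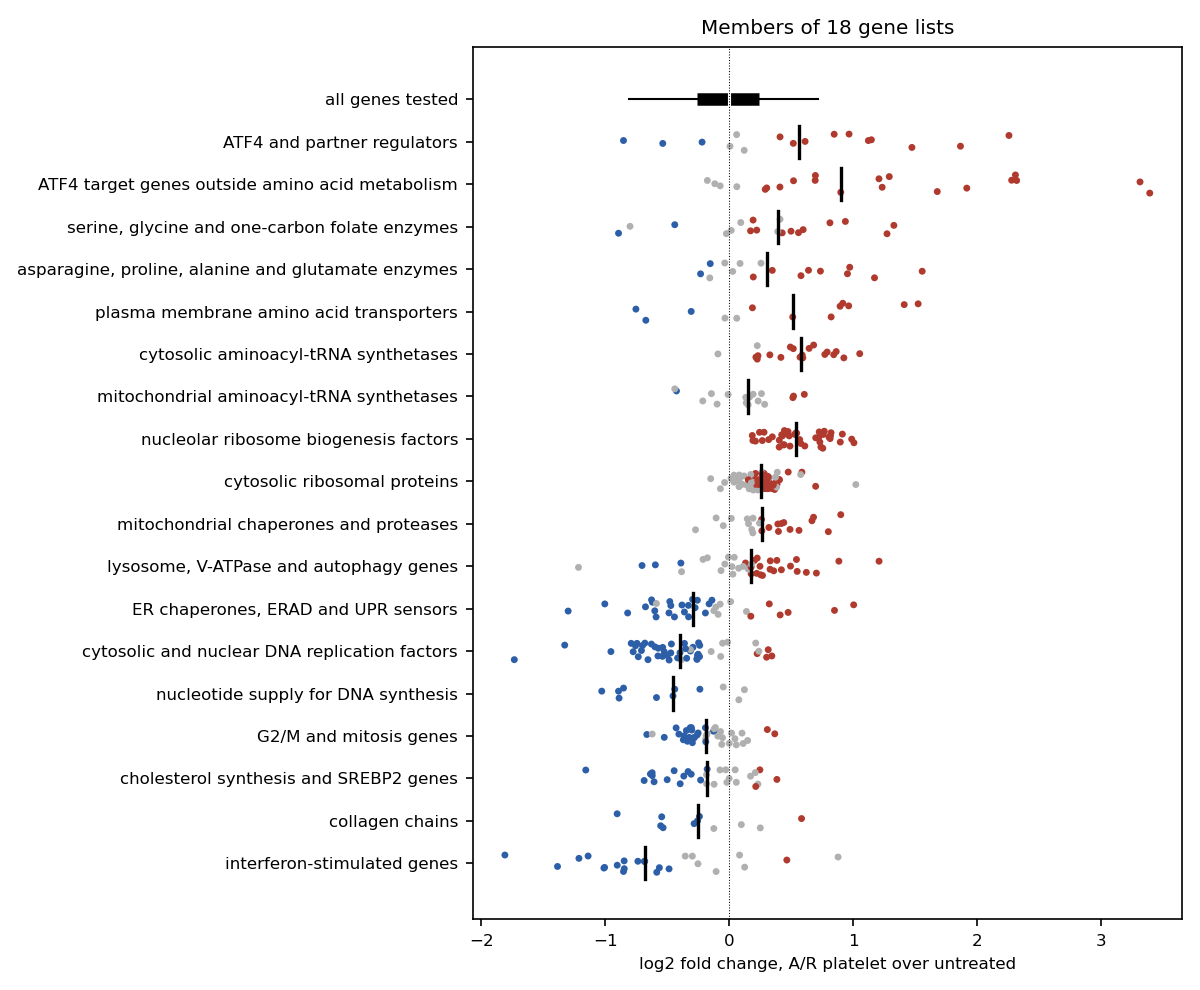
Log2 fold change of A/R platelet over untreated libraries (x axis) for each tested member of 18 gene lists (rows), with red points for genes called higher, blue for genes called lower, grey for genes not called, and a black bar at the list's median. The top row gives all genes tested by their median (white gap, 0.00), their quartiles (thick line) and the span without the outer 5% on each side (thin line). Nucleolar factors lie wholly to the right of 0, and replication and ER chaperone genes lie mostly to the left.

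Genes of ribosome building rose in every tested member of the list. All 41 nucleolar factors rose, with a median of 0.54, and 35 of the 41 were also higher than in platelet libraries, where 17.1% of all genes were called higher. The call of Noc4l† was lost without A/R platelet replicate 1 or 2 or untreated replicate 3 (edgeR adjusted p 0.0822, 0.0748 and 0.0661), and no other of the 41 lost its call when 1 library was left out. Ppan, a factor of the large subunit, had 23.3, 22.8 and 22.4 FPKM in A/R platelet libraries, 13.8, 12.8 and 12.6 FPKM in platelet libraries and 11.6, 11.6 and 12 FPKM in untreated libraries. Its groups followed each other without overlap, with the A/R platelet libraries highest and the untreated ones lowest. Rrp9†, Utp18† and Utp4†, of the small subunit processome, rose by 0.99 ± 0.094, 0.91 ± 0.056 and 0.82 ± 0.048, and Gtpbp4†, a nucleolar GTPase, by 0.90 ± 0.065. The abundant nucleolar proteins rose less, with Ncl (nucleolin) at 0.58 ± 0.032, Npm1† (nucleophosmin) at 0.44 ± 0.042 and Fbl† (fibrillarin) at 0.44 ± 0.054.

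Polymerases that make ribosomal and transfer RNA followed in part. In the list of RNA polymerase I and III subunits and factors 14 of 29 rose and 2 fell. Polr3d and Polr3e, subunits of RNA polymerase III, rose by 1.19 ± 0.082 and 1.13 ± 0.072, Polr1b, the second largest subunit of polymerase I, by 0.73 ± 0.055 and Rrn3, which brings polymerase I to the rDNA, by 0.51 ± 0.039. The largest subunit of polymerase I, Polr1a†, was at 0.09 ± 0.057 without a call. Of 88 tested cytosolic ribosomal proteins 51 rose and 0 fell, with a median of 0.26, and this count ranged from 29 to 64 over the other settings and fits tried. Many ribosomal protein genes have processed copies that can share their reads, so single members are uncertain. Of 79 mitochondrial ribosomal proteins 20 rose and 8 fell (5 without untreated replicate 2), so the share higher was close to the 19.3% of all genes.

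Translation factors rose in 22 of 41 members and fell in 2. Eif4ebp1, the repressor of cap-dependent translation that is itself an ATF4 target, had 133, 122 and 132 FPKM in A/R platelet libraries, 72.5, 74.3 and 71.4 FPKM in platelet libraries and 62.8, 73.3 and 60.3 FPKM in untreated libraries. Its relative Eif4ebp2†, which binds the same factor, fell by 0.62 ± 0.062, so the repressors of eIF4E moved in opposite directions. Eif5†, which acts on the start codon complex, rose by 1.04 ± 0.096, the helicase gene Eif4a2† by 0.73 ± 0.069, Eif2s2, the beta subunit of eIF2, by 0.64 ± 0.057 and Eif2b3†, a subunit of its exchange factor, by 0.70 ± 0.084. The cap-binding gene Eif4e† itself was at -0.05 ± 0.24 without a call.

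Myc held 38.5, 33.1 and 31.2 FPKM in A/R platelet libraries, 22.4, 21.8 and 22.5 FPKM in platelet libraries and 21.4, 16.9 and 18.5 FPKM in untreated libraries. It was highest in A/R platelet libraries, and Myc rose by 0.91 ± 0.1 (edgeR adjusted p 0.00014). In the same network Mxd3, a MAX partner that opposes MYC, fell by 1.09 ± 0.2, and Max† was at 0.32 ± 0.2 without a call. Srm, spermidine synthase, rose by 0.75 ± 0.073, Odc1, which starts polyamine synthesis, by 0.44 ± 0.042 and Azin1, which shields it from degradation, by 0.41 ± 0.096. Of 17 enzymes of purine and pyrimidine synthesis 9 rose and 1 fell, with 5 higher without A/R platelet replicate 1, A/R platelet replicate 3 or untreated replicate 3. Among them Ctps, CTP synthase, rose by 0.47 ± 0.04 and Prps1, which makes the ribose donor, by 0.57 ± 0.048, while the related Prps2† fell by 0.57 ± 0.093.

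Regulators of mTORC1, the kinase that couples amino acids to growth, were split. Of 23 tested members 11 rose and 4 fell. Rheb, the GTPase that activates mTORC1, had 19.1, 19.9 and 20.4 FPKM in A/R platelet libraries, 13.6, 13.5 and 13.3 FPKM in platelet libraries and 11.8, 12.3 and 11.2 FPKM in untreated libraries. Its libraries ran in 3 separate bands, highest with A/R platelets. The lysosomal Rag GTPases Rragb (0.82), Rragc (0.46) and Rraga (0.37) rose. Deptor, a protein that binds and inhibits mTOR, fell with 2.4, 2.41 and 2.79 FPKM in A/R platelet libraries, 5.5, 6.07 and 6.68 FPKM in platelet libraries and 6.31, 6.14 and 7.73 FPKM in untreated libraries. It was lower in all A/R platelet libraries, and the other groups overlapped. Castor2, of the arginine sensor family, fell by 1.81 ± 0.11 and Sesn1 by 0.75 ± 0.19, whereas Mtor itself was at -0.05 ± 0.097 without a call. For Castor2 no A/R platelet library reached an FPKM of 1, so the filter favoured its fall.

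Lysosomal and autophagy genes rose in 21 of 39 tested members and fell in 3. Neu1†, lysosomal sialidase, rose by 0.89 ± 0.11, Hexa, a hexosaminidase, by 0.55 ± 0.04 and the proton pump subunits Atp6v1g1 and Atp6v1c1 by 0.70 ± 0.064 and 0.62 ± 0.049. Lamp2†, a membrane protein of the lysosome, rose by 0.25 ± 0.038. Ulk1†, the kinase that starts autophagy, fell by 0.70 ± 0.094. The CLEAR core TCACGTGA stood in 6 of 30 of these promoters, against 2.47% of tested genes with a window and 0.974% of all windows. Of those 6 genes 2 rose and the others were not called.

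Transcripts of mitochondrial chaperones rose in part, while most messenger RNAs of the mitochondrial genome fell. Of 23 mitochondrial chaperones and proteases 13 rose and 0 fell (1 fell under limma on log2 FPKM), with a median of 0.26. Lonp1, the matrix protease, had 137, 138 and 132 FPKM in A/R platelet libraries, 72.5, 73 and 71.7 FPKM in platelet libraries and 75.6, 75 and 75.1 FPKM in untreated libraries. The A/R platelet libraries lay far above both other groups, of which the untreated one was slightly higher. Hspa9, the matrix HSP70, rose by 0.67 ± 0.03, its cochaperones Dnaja3† and Grpel2 by 0.80 ± 0.12 and 0.68 ± 0.049, and the chaperonin pair Hspd1† and Hspe1† by 0.32 ± 0.04 and 0.39 ± 0.057. Nuclear genes of the respiratory chain were mostly not called, with 12 of 80 higher and 5 lower, smaller shares than of all genes. The 12 became 6 without A/R platelet replicate 1, 7 without A/R platelet replicate 3, 6 without untreated replicate 1, 22 without untreated replicate 2 and 5 without untreated replicate 3, and the 5 became 3 without A/R platelet replicate 2 or 3 or untreated replicate 2. Uqcrh, a hinge subunit of complex III, fell by 0.82 ± 0.11.

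Of the 13 messenger RNAs of the mitochondrial genome 8 fell and 1 rose. mt-Cytb, the cytochrome b subunit, had 1856, 1888 and 1940.0 FPKM in A/R platelet libraries, 2983, 2860.0 and 2835 FPKM in platelet libraries and 2898, 2955 and 3060.0 FPKM in untreated libraries. A/R platelet libraries were lowest, and mt-Cytb fell by 0.60 ± 0.036. mt-Nd3, mt-Nd4 and mt-Nd5, subunits of complex I, fell by 0.69 ± 0.17, 0.51 ± 0.12 and 0.40 ± 0.053. mt-Co1, a cytochrome oxidase subunit, stood higher at 0.42 ± 0.043, and mt-Co2† and mt-Co3† were at 0.06 ± 0.19 and -0.09 ± 0.18 without a call. Under quantile normalization mt-Co1 stood at 0.00 against untreated and against platelet libraries. That scaling gives genes of equal rank the same value in every library. It therefore cannot show a change where the rank stays the same, and it does not decide on mt-Co1. Mitochondrial transcripts of all kinds made up 2.72% to 3.27% of all counts in A/R platelet libraries, 3.05% to 3.49% in platelet libraries and 3.26% to 3.41% in untreated libraries, which overlapped.

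Carriers of the inner membrane changed in both directions, with 11 of 34 higher and 5 lower. Besides Slc25a33, the iron carriers Slc25a37† and Slc25a28† rose by 0.71 ± 0.11 and 0.64 ± 0.087, the glutamate carrier Slc25a22† by 0.59 ± 0.11 and Slc25a39†, which brings in glutathione, by 0.36 ± 0.049. Slc25a12 and Slc25a13†, the aspartate and glutamate exchangers, fell by 0.45 ± 0.059 and 0.29 ± 0.068, and Slc25a24, which carries adenine nucleotides, by 0.54 ± 0.067.

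Chaperones of the ER ran against those of mitochondria. Of 35 tested genes for ER chaperones, ER-associated degradation and stress sensors 22 fell and 6 rose, with a median of -0.30. Hspa5† (BiP), the ER HSP70, had 231, 236 and 235 FPKM in A/R platelet libraries, 336, 308 and 331 FPKM in platelet libraries and 320.0, 336 and 332 FPKM in untreated libraries. All A/R platelet libraries were lower than the other 6, and Hspa5 fell by 0.44 ± 0.042. Dnajc3 (p58IPK), a cochaperone of BiP and inhibitor of PERK, had 8.31, 7.88 and 7.88 FPKM in A/R platelet libraries, 17.1, 17.6 and 17.1 FPKM in platelet libraries and 20.4, 19.6 and 21.3 FPKM in untreated libraries. Here too A/R platelet libraries were lowest, with untreated libraries above the platelet ones. Calr, calreticulin, a calcium-binding chaperone whose promoter stretch above holds the ER stress element as those of Hspa5 and Dnajc3 do, had 355, 344 and 334 FPKM in A/R platelet libraries, 523, 517 and 515 FPKM in platelet libraries and 538, 540.4 and 532 FPKM in untreated libraries. Levels of Calr were lowest in A/R platelet libraries, and the other groups were close to each other. Hsp90b1† fell by 0.48 ± 0.032, Pdia4† and Pdia6†, which form disulfide bonds, by 0.47 ± 0.038 and 0.49 ± 0.038, Hyou1†, an exchange factor for BiP, by 0.63 ± 0.051, Creld2† by 0.60 ± 0.054 and Manf†, a secreted ER stress protein, by 0.68 ± 0.059.

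The sensors of the ER did not all follow. Xbp1†, the transcription factor that IRE1 activates by splicing, fell by 0.82 ± 0.15, while Atf6 rose by 0.85 ± 0.056 and Ern1†, which encodes IRE1 alpha, by 0.48 ± 0.095. Ero1l†, an ER oxidase known as a target of CHOP and of hypoxia, had 23.9, 24.7 and 25 FPKM in A/R platelet libraries, 12.7, 11.2 and 11.9 FPKM in platelet libraries and 12.5, 11.6 and 13.8 FPKM in untreated libraries. It was higher in A/R platelet libraries than in all others, in contrast to most genes of the same list. Sel1l† (-0.11) and Herpud1†, of ER-associated degradation, were not called. Spliced Xbp1 was not measured as such in a gene table.

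Cytosolic chaperones of the heat shock response moved in both directions, with 5 of 29 higher and 8 lower. Bag3, a cochaperone of HSP70 and a common heat shock target, fell by 0.78 ± 0.086, Dnajb1†, an HSP40, by 0.43 ± 0.07 and Hspb8 by 0.40 ± 0.05. Hspa1b had 4.61, 3.89 and 4.31 FPKM in A/R platelet libraries, 11.2, 11.1 and 12.1 FPKM in platelet libraries and 13, 13.9 and 8.85 FPKM in untreated libraries. Its levels were lowest in A/R platelet libraries, but Hspa1b and Hspa1a† are near-identical and share reads. Hsp90aa1† (-0.04), Hsp90ab1† (0.05) and Hspa8† (0.02), which are expressed at all times, were not called, nor was Hsf1† (0.14).

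More genes fell in the list of DNA replication than in any other list used here. Of 49 replication factors 37 fell and 4 rose, with a median of -0.40, and 32 of the 49 were also lower than in platelet libraries, where 17.1% of all genes were called lower. Cdc6 (chr11:98907801-98923940, plus strand), which loads the MCM helicase with Cdt1†, had 5.06, 5.45 and 5.57 FPKM in A/R platelet libraries, 18.4, 16.8 and 17.4 FPKM in platelet libraries and 19.1, 17.2 and 19.2 FPKM in untreated libraries. Far lower levels marked the A/R platelet libraries than the other groups (edgeR adjusted p 5.46e-07). Clspn, which relays stalled forks to the checkpoint kinase, fell by 1.33 ± 0.065, Fen1†, which trims Okazaki fragments, by 0.95 ± 0.19, and Rpa2†, of the single-strand binding complex, by 0.79 ± 0.066.

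Within the replication machinery the parts moved unequally. All 6 subunits of the MCM2-7 helicase fell, between -0.74 for Mcm6 and -0.29 for Mcm2†, as did Gins2† (-0.70), Gins3† (-0.77) and Cdc45† (-0.60), which complete the moving helicase. The sliding clamp Pcna† had 103, 99.2 and 107 FPKM in A/R platelet libraries, 162, 153 and 149 FPKM in platelet libraries and 149, 158 and 154 FPKM in untreated libraries. Its A/R platelet libraries were lowest, and the platelet and untreated libraries overlapped. Subunits of the origin recognition complex were split, since Orc4†, Orc2† and Orc3† rose by 0.34 ± 0.073, 0.32 ± 0.044 and 0.23 ± 0.047, Orc1† fell by 0.31 ± 0.089 (a call lost without A/R platelet replicate 1 or 3, untreated replicate 3 or a filter on low values), and Orc5† (0.21) and Orc6† (-0.39) were not called. Dbf4†, which activates the kinase CDC7 at origins, also rose by 0.30 ± 0.053, while Cdc7† was at 0.24 ± 0.095 without a call.

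**Figure D5:**
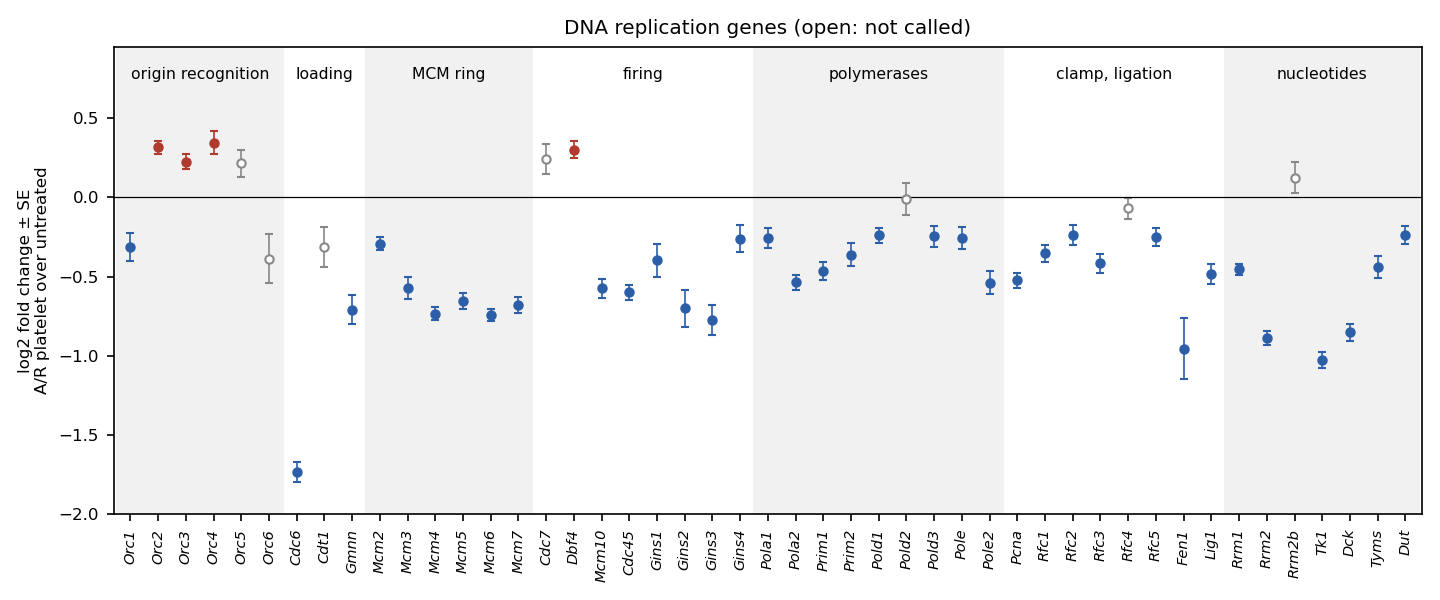
Log2 fold change of A/R platelet over untreated libraries (y axis, error bars for 1 SE) of genes of DNA replication and nucleotide supply (x axis), grouped by role, with filled circles for called and open circles for uncalled genes. Orc2, Orc3, Orc4 and Dbf4 lie above 0 and are called, and the MCM and GINS genes and Pcna lie below 0.

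Genes of nucleotide supply for DNA fell alongside, in 8 of 11 members, with 0 higher and a median of -0.45. Tk1, thymidine kinase of S phase, had 12.4, 11.5 and 12.7 FPKM in A/R platelet libraries, 26, 24.3 and 24.6 FPKM in platelet libraries and 24.9, 26.9 and 25.4 FPKM in untreated libraries. The groups did not overlap between A/R platelet and other libraries. Rrm2 and Rrm1†, the subunits of ribonucleotide reductase, fell by 0.89 ± 0.047 and 0.45 ± 0.035, and Dck, which salvages deoxynucleosides, by 0.85 ± 0.053. Rrm2b†, the p53-induced subunit, was at 0.12 ± 0.097 without a call.

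The cyclins and E2F factors above replication fell in part. Ccne2 and Ccne1†, the cyclins of the G1/S step, fell by 1.32 ± 0.08 and 0.94 ± 0.1, and Skp2†, which marks a CDK inhibitor for degradation, by 0.91 ± 0.091. The D cyclins differed from one another. Ccnd2 rose by 0.75 ± 0.06, whereas Ccnd3 fell by 0.75 ± 0.062 and Ccnd1, the most abundant of the 3, by 0.31 ± 0.031. Of 13 E2F and pocket protein genes 8 fell and 2 rose. E2f2 (-1.04), E2f1† (-0.29) and the repressors E2f7 (-1.22) and E2f8 (-0.48) fell, and so did Rbl2† (-0.76), a pocket protein of resting cells, whereas E2f5† rose (0.90).

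Genes of G2 and mitosis fell less. Of 40 members 21 fell and 2 rose, with a median of -0.19. Mki67, a marker of cycling cells, had 31, 35.2 and 32.6 FPKM in A/R platelet libraries, 43.4, 46.1 and 49.3 FPKM in platelet libraries and 56, 48.8 and 57.5 FPKM in untreated libraries. It was lowest in A/R platelet libraries, and its platelet libraries overlapped the untreated ones. Ccna2 fell by 0.41 ± 0.045, Mybl2 by 0.52 ± 0.057 and Plk1†, a mitotic kinase, by 0.32 ± 0.056. Ccnb1† (0.02), Cdk1† (0.00) and Aurka† (-0.05), which drive entry into mitosis, were not called, and Ube2c†, of the anaphase-promoting complex, rose by 0.37 ± 0.06. The mismatch repair gene Msh6 fell by 0.74 ± 0.061.

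Targets of p53 did not move as a group, with 6 of 24 higher and 7 lower and a median of 0.01. Gadd45a, a growth arrest gene that p53 and ATF4 both drive, had 36.4, 31.6 and 39.3 FPKM in A/R platelet libraries, 4.41, 5.5 and 4.47 FPKM in platelet libraries and 4.12, 5.48 and 4.21 FPKM in untreated libraries. Far above the rest stood the A/R platelet libraries, while its relatives Gadd45b† (-0.18) and Gadd45g† (-0.04) were not called. Cdkn1a (p21), the classical p53 target, fell with 46.2, 42.1 and 44.3 FPKM in A/R platelet libraries, 70.1, 69.7 and 70 FPKM in platelet libraries and 67.3, 70 and 65.4 FPKM in untreated libraries. Ppm1d† and Phlda3†, further p53 targets, fell by 0.72 ± 0.095 and 0.75 ± 0.096, and Mdm2† (0.10) and Trp53† (0.01) were not called. In the list of BCL2 family members and death receptors 4 of 16 rose and 5 fell, with 3 lower without A/R platelet replicate 1 or 2 or untreated replicate 2 or 3. Bbc3 (PUMA), which triggers apoptosis, rose by 0.63 ± 0.13 and Bid by 0.60 ± 0.073, and the survival gene Bcl2 fell by 0.54 ± 0.13. For Bcl2 no A/R platelet library reached an FPKM of 1.

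In the list of glycolysis and pentose phosphate genes 6 of 28 tested members rose and 9 fell, with 5 lower without A/R platelet replicate 2 and 4 lower without A/R platelet replicate 3. Slc2a1, the glucose transporter, rose by 0.99 ± 0.052, Hk2, which traps glucose in the cell, had 19.7, 21.1 and 19.1 FPKM in A/R platelet libraries, 9.67, 9.89 and 9.49 FPKM in platelet libraries and 8.35, 8.04 and 8.64 FPKM in untreated libraries, and Slc16a1, which carries lactate, rose by 1.06 ± 0.045. Hk2 was highest in A/R platelet libraries, without overlap. Pgam1† and Ldha†, enzymes of the pathway, fell by 0.30 ± 0.074 and 0.28 ± 0.057, and Pkm† (0.06), Eno1† (0.13) and Aldoa† (0.02) were not called. Gys1, glycogen synthase, rose by 1.08 ± 0.17 and Pygb, a glycogen phosphorylase, fell by 0.48 ± 0.061. Of hypoxia-induced genes outside glycolysis 4 of 12 rose and 4 fell, with Ndrg1 at 1.65 ± 0.042 and Bnip3, a mitophagy receptor, at -1.35 ± 0.27.

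Lipid genes fell more often than they rose. Of 29 tested genes of cholesterol synthesis and SREBP2 14 fell and 3 rose, and Hmgcs1†, an early enzyme of the pathway, was among those that fell (-0.50). Abcg1, which exports cholesterol, also fell by 1.16 ± 0.11. In fatty acid synthesis 7 of 21 fell, with Elovl6, an elongase, at -0.92 ± 0.046, Scd2, a desaturase, at -0.79 ± 0.065 and the regulator Srebf1† at -0.61 ± 0.079. In fatty acid oxidation 8 of 24 fell and 1 rose. Cpt1a, which admits fatty acids to mitochondria, had 2.79, 2.81 and 2.74 FPKM in A/R platelet libraries, 4.94, 5.22 and 5.72 FPKM in platelet libraries and 6.87, 6.32 and 6.36 FPKM in untreated libraries. Cpt1a was lowest in A/R platelet libraries, and the platelet libraries lay between. Without A/R platelet replicate 1, 5 of the 24 oxidation genes were lower.

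Secreted factors were among the changed genes. Of 17 growth factor ligands 8 rose and 5 fell. Among the 17, Areg met the filter only through A/R platelet libraries, and Pdgfb and Fgf2 had no A/R platelet library at an FPKM of 1. Vegfa, the main growth factor of blood vessels, had 12.5, 13.2 and 14 FPKM in A/R platelet libraries, 6.17, 4.97 and 6.39 FPKM in platelet libraries and 5.82, 5.69 and 6.24 FPKM in untreated libraries, with platelet and untreated libraries alike below it. Vegfc, a factor of lymphatic vessels, rose by 0.72 ± 0.067 and Hbegf, which activates the EGF receptor, by 0.72 ± 0.041. Angptl6 rose by 3.23, the most of the list. In the other direction, Pdgfb fell by 1.21 ± 0.2, Vegfd by 1.25 ± 0.099, Ereg, which binds the EGF receptor, fell by 0.71 ± 0.069 and Angptl4 fell by 1.79 ± 0.15.

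Of 17 growth factor receptors 9 were not called, 6 fell and 2 rose. Pdgfrb and Pdgfra fell by 0.96 ± 0.047 and 0.64 ± 0.063 and Nrp1, a coreceptor for VEGF and semaphorins, by 0.81 ± 0.069. In the list of TGF-beta ligands, receptors and feedback 8 of 21 rose and 7 fell. Inhba, the activin A subunit, had 1.99, 1.65 and 1.82 FPKM in A/R platelet libraries, 0.638, 0.483 and 0.734 FPKM in platelet libraries and 0.404, 0.561 and 0.392 FPKM in untreated libraries. It was low everywhere and met the filter only through the A/R platelet libraries. Tgfbr2 and Tgfbr1, the receptor pair of TGF-beta, fell by 0.91 ± 0.065 and 0.62 ± 0.072, while Smad7, its feedback inhibitor, rose by 0.79 ± 0.073. In BMP signalling the Id genes fell, Id1 by 0.72 ± 0.1, Id2† by 1.42 ± 0.22 and Id3 by 0.85 ± 0.12, as did the feedback gene Smad6 by 0.99 ± 0.13, and the BMP antagonist Grem1 rose by 0.90 ± 0.039. Of 12 tested hedgehog, Wnt and Notch components 7 fell and 1 rose. Gas1, which binds hedgehog ligand at the surface, had 5.68, 7.66 and 6.97 FPKM in A/R platelet libraries, 19.6, 21.7 and 21.7 FPKM in platelet libraries and 26.4, 26.9 and 23.8 FPKM in untreated libraries. Its level was lowest in all A/R platelet libraries. Fzd2†, a Wnt receptor, fell by 1.04 ± 0.16 and Notch1† by 0.70 ± 0.12, whereas the Notch ligand Jag1 rose by 0.89 ± 0.13. For Id2 and Notch1 no A/R platelet library reached an FPKM of 1.

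Feedback genes of the ERK pathway split as well. Spry4 and Spry2†, Sprouty inhibitors, rose by 1.42 ± 0.15 and 0.78 ± 0.12 and Dusp5, a nuclear phosphatase of ERK, by 1.07 ± 0.098. Spred1 fell by 0.54 ± 0.049, Dusp1† by 0.57 ± 0.1 and Dusp14, an atypical phosphatase, had 0.953, 0.924 and 1.34 FPKM in A/R platelet libraries, 6.11, 6.34 and 5.64 FPKM in platelet libraries and 5.31, 6.23 and 5.82 FPKM in untreated libraries. Its A/R platelet libraries lay below a narrow band shared by the other groups. Of 23 actin and contractile genes 13 rose and 4 fell, led by Acta2†, smooth muscle actin (1.20 ± 0.23), and Zyx, zyxin (1.07 ± 0.15), alongside their regulator Srf (1.08 ± 0.066).

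Clotting and prostaglandin genes were changed. Of 12 tested genes of plasminogen activation and thrombin reception 6 rose and 2 fell. F3, tissue factor, which starts clotting, had 6.74, 5.83 and 6.82 FPKM in A/R platelet libraries, 3.6, 2.57 and 2.69 FPKM in platelet libraries and 2.25, 2.2 and 2.58 FPKM in untreated libraries. Thbd, thrombomodulin, which turns thrombin from clotting to protein C, had 6.48, 6.57 and 5.67 FPKM in A/R platelet libraries, 2.92, 2.61 and 2.44 FPKM in platelet libraries and 2.6, 2.52 and 2.14 FPKM in untreated libraries. Both were highest in all A/R platelet libraries. Plaur, the urokinase receptor, rose by 1.54 ± 0.061, and F2r, the thrombin receptor PAR1, fell by 0.17 ± 0.038. Ptgs2, cyclooxygenase 2, had 112, 119.8 and 118 FPKM in A/R platelet libraries, 42.8, 42.2 and 44.6 FPKM in platelet libraries and 34.8, 34.4 and 38 FPKM in untreated libraries. Pla2g4a, the phospholipase that frees arachidonic acid, rose by 0.81 ± 0.063, while Ptges, the inducible synthase of prostaglandin E2 that works with cyclooxygenase 2, fell by 1.36 ± 0.18.

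Immune genes moved mostly downward in the interferon group, with 16 of 24 interferon-stimulated genes lower and 1 higher and a median of -0.68, although 3 of the 24 (Irf9†, Gbp7† and Sp100†) had no A/R platelet library at an FPKM of 1. Pml, scaffold of nuclear bodies, had 4.37, 3.8 and 3.83 FPKM in A/R platelet libraries, 15.9, 15.8 and 14.7 FPKM in platelet libraries and 13.5, 12.7 and 17.6 FPKM in untreated libraries. Only A/R platelet libraries were low. Sp100, a partner in the same bodies, fell by 1.21 ± 0.16, Ddx58 (RIG-I), a sensor of viral RNA, by 1.01 ± 0.078, Ifit2 by 1.14 ± 0.093 and Stat2† by 0.58 ± 0.13. Gbp7 had 0.597, 0.764 and 0.749 FPKM in A/R platelet libraries, 1.25, 1.05 and 1.27 FPKM in platelet libraries and 1.72, 1.59 and 2.42 FPKM in untreated libraries. Its platelet libraries lay between the others. Nfkbia, the inhibitor of NF-kappa B, fell by 0.93 ± 0.087, and Relb, a subunit of the noncanonical pathway, rose by 0.85 ± 0.08. Pvr (CD155), a ligand of activating and inhibitory receptors of NK cells, rose by 1.25 ± 0.067, whereas Ulbp1 and Raet1e, ligands of NKG2D, fell by 1.09 ± 0.051 and 0.47 ± 0.095. MHC class I genes share near-identical stretches, and their values are uncertain.

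Matrix and lineage genes fell more often than they rose. Of 11 tested collagen chains 7 fell and 1 rose, with a median of -0.26. Col3a1 had 64.3, 69.6 and 65.8 FPKM in A/R platelet libraries, 115, 122 and 116 FPKM in platelet libraries and 134, 126 and 128 FPKM in untreated libraries. All A/R platelet libraries were below the rest. Col1a1, the main chain of bone collagen, fell by 0.54 ± 0.082, Fbn1 by 0.64 ± 0.072 and the lysyl oxidase gene Loxl4 by 0.72 ± 0.058, while fibronectin, Fn1, rose by 0.54 ± 0.068. Of 9 bone lineage markers 0 rose and 5 fell, and Runx2† was at 0.20 ± 0.24 without a call. The factors of mesenchymal transition differed, with Snai2 higher by 1.26 ± 0.19, Zeb2 by 0.59 ± 0.079, and Twist1 and Snai1† lower at -0.74 ± 0.067 and -0.63 ± 0.098. Hmga2, a chromatin protein of embryos and tumours, rose by 0.86 ± 0.042.

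Transcripts of other cells were looked for, since platelets were added to the cultures. Of 26 platelet and megakaryocyte transcripts 3 passed the filter, and the list summed to 511 to 549 CPM in A/R platelet libraries, 661 to 690 CPM in platelet libraries and 689 to 716 CPM in untreated libraries. Most of the sum was Sparc, which bone cells also express. Ppbp, pro-platelet basic protein, fell by 1.00 ± 0.23, and 21 of the 26 had counts in 1 or more libraries. Gp6, Tubb1, Treml1 and Clec1b were at 0 counts in all 9 libraries. Pf4, platelet factor 4, had 17, 12 and 11 counts in A/R platelet libraries, 6, 3 and 2 counts in platelet libraries and 12, 15 and 0 counts in untreated libraries. Gp5, a platelet surface glycoprotein, had 8, 16 and 3 counts in A/R platelet libraries, 8, 6 and 4 counts in platelet libraries and 0 counts in each untreated library. Thbs1, thrombospondin 1, which other cells also make, had 130.0, 173 and 115 counts in A/R platelet libraries, 90, 61 and 91 counts in platelet libraries and 104, 51 and 50 counts in untreated libraries. At about 4 counts per fragment, Pf4 and Gp5 are within a few fragments of 0, and none of the 3 genes passed the filter. Other members with low counts leaned the other way. Gp1bb had 5, 26 and 6 counts in A/R platelet libraries, 45, 4 and 18 in platelet libraries and 36, 15 and 23 in untreated libraries. Plek had 0 counts in each A/R platelet library, 19, 8 and 0 in platelet libraries and 19, 8 and 12 in untreated libraries. Leukocyte transcripts, 24 in all and mostly Csf1r by level, summed to 2050 to 2190 CPM in A/R platelet libraries, 2700 to 2880 CPM in platelet libraries and 2830 to 2970 CPM in untreated libraries. Of the 24, Cd3e, Ms4a1, Nkg7, Gzma, S100a8 and Elane were at 0 counts throughout, and 18 had counts in 1 or more libraries. Among these Ptprc (CD45) had 0 to 12 counts in A/R platelet libraries, 0 to 5 in platelet libraries and 0 to 4 in untreated libraries. Cd68†, of macrophages, had 186, 385 and 253 counts in A/R platelet libraries, 219, 261 and 172 counts in platelet libraries and 186, 216 and 136 counts in untreated libraries. Cd14 went the other way, with 28.4, 27.9 and 26.8 FPKM in A/R platelet libraries. It had 54.8, 52.3 and 51.1 FPKM in platelet libraries and 44.2, 49.1 and 44.5 FPKM in untreated libraries. Of the 4 leukocyte genes that passed the filter 0 rose and 2 fell. The part of these transcripts in the results above was not tested.

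Against platelet libraries, a comparison that uses the same A/R platelet libraries, 34.3% of genes were called, 17.1% higher and 17.1% lower. There 15 of 21 other ATF4 targets were higher (median 0.94), as were 17 of 20 cytosolic synthetases (median 0.58) and 13 of 23 mitochondrial chaperones and proteases. In the other direction, 20 of 35 ER genes, 8 of 11 genes of nucleotide supply and 11 of 24 interferon-stimulated genes were lower. Some genes stood differently against the 2 groups. Ccn2, connective tissue growth factor, had 20.7, 20.9 and 20.1 FPKM in A/R platelet libraries, 45, 43.4 and 43.3 FPKM in platelet libraries and 29.3, 26 and 30.1 FPKM in untreated libraries. Its A/R platelet libraries were lowest and its platelet libraries highest, so that it stood at -0.41 ± 0.059 against untreated and -1.06 ± 0.06 against platelet libraries, both called. Serpinb9, an inhibitor of granzyme B, was 0.72 ± 0.053 above untreated and 1.20 ± 0.053 above platelet libraries, both called.

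Other genes rose over untreated but were not called against platelet libraries. Flcn, folliculin, which controls the lysosomal factor TFEB, had 10.2, 10.4 and 9.29 FPKM in A/R platelet libraries, 8.45, 9.96 and 9.13 FPKM in platelet libraries and 5.83, 6.37 and 5.64 FPKM in untreated libraries. Platelet libraries overlapped the A/R platelet libraries, and Flcn was at 0.16 ± 0.084 between them (edgeR adjusted p 0.182). Trib1, a pseudokinase, rose over untreated by 0.61 ± 0.065 and was at -0.05 ± 0.065 against platelet libraries (edgeR adjusted p 0.608), while Tnfrsf12a, the receptor of TWEAK, rose by 0.56 ± 0.13 and was at -0.05 ± 0.13 (edgeR adjusted p 0.805). Of 88 tested ribosomal proteins 12 were higher than in platelet libraries and 1 lower, fewer than the 17.1% of all genes. A difference that is not called does not show that the levels were alike.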

How the data were processed

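The 9 K7M2 libraries were made from total RNA with a SMARTER mRNA-Seq kit, per the labels. The deposited table lists an FPKM and a count for each of 55401 genes in every library. GRCm38 (mm10) is the genome build, per the submitters' processing notes. Which programs aligned and counted the reads, and whether strand was used, is not given in the sources used here. The FPKM values as deposited by the authors hold 0.0001 in place of 0. Counts as deposited are whole numbers that look like estimated counts rounded up, at about 4 counts per fragment, so a gene without counts was given a limit of 3 fragments or 12 counts, which covers counting error only. No libraries of a group were so alike as to be a repeat deposit.

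Tests covered the 11826 genes that reached an FPKM of 1 in 3 or more of 9 libraries, which held 99.4% to 99.5% of counts. They used edgeR 4.0.16 in R 4.3.3: a quasi-likelihood test with TMM scaling, 1 mean per group, all 9 libraries in 1 fit, no covariates, Benjamini-Hochberg adjustment over all genes tested and a threshold of 0.05. The SE of a log2 fold change is its size over the square root of the F statistic. The step was tested on simulated counts. Alternatives were other scalings and filters, limma 3.58.1, DESeq2 1.42.0, counts divided by 4, the 6 libraries alone, a replicate block and leaving out each library.

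Named genes follow a rule: the 20 largest called rises and falls that had no overlap between groups and a mean of 5 FPKM or more in 1 of them, the 10 largest FPKM gains and losses, up to 4 members of each list by smallest p, all members of regulator, ligand and receptor lists, and some fixed genes. The members, lists and rule were chosen with earlier results of these data known, and the text takes a part of them. For a symbol with several gene IDs the one with the highest FPKM was used. Promoter windows of RefSeq (GRCm38.p6) were matched by symbol.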

Additional observations from a re-analysis of the deposited data

How the results depend on the processing

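Between A/R platelet and untreated libraries 4587 genes were called. The other scalings, tools, counts divided by 4 and no filter on low values called 4057 to 4862 genes in all, of which 3785 to 4571 were among the 4587. Fits without 1 of the 9 libraries called 3839 to 4512 genes (1935 to 2261 higher and 1904 to 2267 lower), of which 3689 to 4391 were among the 4587. Shared calls had the same direction. Calls of at least 2-fold, 179 higher and 276 lower, numbered 86 and 101 with limma on log2(FPKM + 1), whose pseudocount shrinks low genes, and 111 and 104 with a filter of FPKM of at least 5, which tests 7481 genes. Against platelet libraries, where 138 were higher and 202 lower, these were 69 and 73 and, with that filter, 86 and 78. That filter also leaves fewer members of lists, such as 9 interferon-stimulated genes lower. The share of calls that were higher was 49.8%, and 40.9% with limma on log2(FPKM + 1). With a replicate block 4171 genes were called against untreated and 3725 against platelet libraries. Same-numbered libraries did not deviate together (correlations -0.0301 to 0.0264). This check cannot exclude that they were handled as pairs, and the labels do not say whether they were. No named gene changed sign while called. Depth limits genes near the floor of 0.196 to 0.320 CPM, where a difference was not detectable.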
